A study of Homo sapiens with 6 samples.

Results

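The genes described here encode the enzymes and carriers that take glucose to pyruvate and lactate, bring pyruvate into mitochondria, and run the pentose phosphate pathway. The list held 38 genes chosen by their known roles, all of which had a row in the table of 14930 genes, and the phosphofructokinases were left out. A gene was tested when its deposited value reached 10 in at least 2 of the 6 samples, which 36 of the 38 members and 9671 genes in all did. ALDOC, the brain-type aldolase (values 1 to 2), and PDK3, a pyruvate dehydrogenase kinase (values 4 to 5), stayed below that level in every sample and were not tested.

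RNA-seq was performed on OVCAR8, an established human ovarian cancer cell line, in 3 groups of 2 samples collected at 72 h: control cells (Ctrl, given the solvent DMSO), cells treated with DZNep, and cells with doxycycline-induced shEZH2. DZNep (3-deazaneplanocin A) inhibits S-adenosylhomocysteine hydrolase and is used to deplete EZH2 protein, whereas shEZH2 is a short hairpin RNA against the EZH2 transcript. The labels give 5 mM DZNep and 1 mg/mL doxycycline, while the methods of the study give the same numbers in μM and μg/mL. The shEZH2 cells were a single inducible hairpin line, there was no group given doxycycline alone, and the sources do not say whether the control RNA came from the parental or the hairpin line, so hairpin, doxycycline and line cannot be told apart. The sources also do not say that the replicates were separate cultures, so the p-values measure the spread between these samples, which may be technical. The comparison of the 3 groups asks which of these genes depend on EZH2, the catalytic subunit of Polycomb repressive complex PRC2, which methylates histone H3.

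In glycolysis, glucose enters through GLUT carriers, is trapped by hexokinases, is split into triose phosphates and is converted to pyruvate with a gain of ATP and NADH. Pyruvate is then reduced to lactate and exported by monocarboxylate carriers, or enters mitochondria through the MPC carrier and is oxidised by the pyruvate dehydrogenase complex, which kinases switch off and phosphatases switch on. The pentose phosphate pathway branches off at glucose 6-phosphate, makes NADPH in its oxidative arm and ribose 5-phosphate for nucleotides, and returns carbon to glycolysis through transketolase and transaldolase. Tumour cells commonly run glycolysis to lactate even in the presence of oxygen.

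EZH2, read as a check of the labels, had values of 36 and 42 in Ctrl, 26 and 26 in DZNep and 18 and 18 in shEZH2. It fell by 0.63 on the log2 scale with DZNep (SE 0.18, adjusted p = 0.0255) and fell by 1.12 with shEZH2 (SE 0.18, adjusted p = 0.016). Both calls were lost when the mean of the shEZH2 samples served as 1 sample (adjusted p = 0.0886 and 0.196) or without shEZH2 replicate 1 (log2 fold changes -0.64 and -1.06, adjusted p = 0.0883 and 0.214) or replicate 2 (-0.63 and -1.14, adjusted p = 0.0915 and 0.17). The DZNep call was also lost with only the 2 groups fitted (adjusted p = 0.088), without Ctrl replicate 2 (-0.60, adjusted p = 0.0872) and without DZNep replicate 2 (-0.52, adjusted p = 0.0704). The deposited values summed to between 999956 and 1000068 in every sample, so sequencing depth is unknown. The shEZH2 replicates lay closer to each other than those of the other groups, with an SD of the log2 difference between replicates of 0.141 over the tested genes, against 0.428 in Ctrl and 0.447 in DZNep. Of the epithelial markers with a row, KRT8, KRT18, KRT7 and MSLN were well above the level for testing in every sample and PAX8 lay at 10 to 19. WT1 was at 1 to 2, EPCAM at 5 to 12, and CDH1 at 0 to 1 in Ctrl, 7 to 8 in DZNep and 1 to 2 in shEZH2, and these were not tested. The summed level of these 8 epithelial markers was 2577 to 3213 in Ctrl, 7408 to 8592 in DZNep and 3553 to 3558 in shEZH2. It moved with KRT8 and KRT18, which rose with DZNep (log2 fold changes 1.77 and 1.66), whereas MSLN and PAX8 fell (-2.06 and -0.68, adjusted p = 0.000483 and 0.0277) and KRT7 did not pass (-0.08, adjusted p = 0.782). The summed level was 2 to 4 for 2 endothelial markers in all samples. For 3 fibroblast markers it was 25 to 28 in Ctrl, 53 to 69 in DZNep and 46 to 53 in shEZH2, with LUM at 0 to 2 in all samples. This sum moved with PDGFRB, at 12 and 11 in Ctrl, 56 and 42 in DZNep and 37 and 34 in shEZH2. COL1A1 did not rise (log2 fold changes -0.50 and -0.16, limma adjusted p = 0.163 and 0.733). For 3 immune markers the summed level was 70 to 74, 18 to 21 and 32 to 35, nearly all of it CD68, with CD14 at 1 to 2. The part of these markers in the results below was not tested. In bulk RNA, fewer cells of a type and less RNA per cell cannot be told apart.

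With DZNep, 5 of the 36 tested members rose and 5 fell against Ctrl, which is 13.9% in each direction, whereas 22.4% of all tested genes rose and 20.4% fell. The members that rose were SLC2A3 and HK2 at glucose entry, TPI1 in the triose steps, MPC1 at mitochondrial pyruvate entry and PDP1, an activating phosphatase of pyruvate dehydrogenase. HK2 reached 10 in the DZNep samples alone and MPC1 in the treated samples alone, so the filter favoured a rise for both. The members that fell were PGLS and TKT of the pentose phosphate pathway, PGM1, PGM2 and GPD2. PGM1 interconverts glucose 1-phosphate and glucose 6-phosphate, and PGM2 is a phosphopentomutase with some glucomutase activity. GPD2 is the mitochondrial glycerol 3-phosphate dehydrogenase. With shEZH2, only SLC2A3 rose and only PGLS fell among the members tested, 2.78% in each direction, beside 3.9% and 4.53% of all tested genes. A gene was called when its limma p, adjusted over all 9671 genes, was under 0.05. On the values as deposited, without TMM scaling, 9 members rose and 3 fell with DZNep, beside 25.7% and 15.6% of all genes, and 1 rose and 3 fell with shEZH2, beside 8.4% and 4.32%. A fit corrected for transcript length and GC called 10 members higher and 12 lower with DZNep, beside 29.3% and 29.4% of all genes, and 2 higher and 10 lower with shEZH2, beside 13.9% and 16.7%.

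At an unadjusted p under 0.05 9 members were higher and 6 lower with DZNep, beside 26.5% and 24.6% of all genes, and 2 were higher and 5 lower with shEZH2, beside 14.9% and 13.4%. Under the thresholds named in the study's methods, a log2 fold change beyond 1 with an unadjusted p under 0.05, 5 members passed with DZNep (SLC2A3, PDP1, PGLS, TKT and PGM1), beside 22.3% of all genes. Under the same thresholds PGLS alone passed with shEZH2, beside 5.3% of all genes. The median log2 fold change of the members was 0.13 with DZNep, beside 0.02 over all genes, and it lay at -0.03 without Ctrl replicate 2 and at -0.03 without DZNep replicate 1. With shEZH2 it was -0.03, beside -0.01. The typical size of change, as the median of the absolute log2 fold change, was 0.38 in members and 0.53 in all genes with DZNep, and 0.26 and 0.31 with shEZH2.

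**Figure D1:**
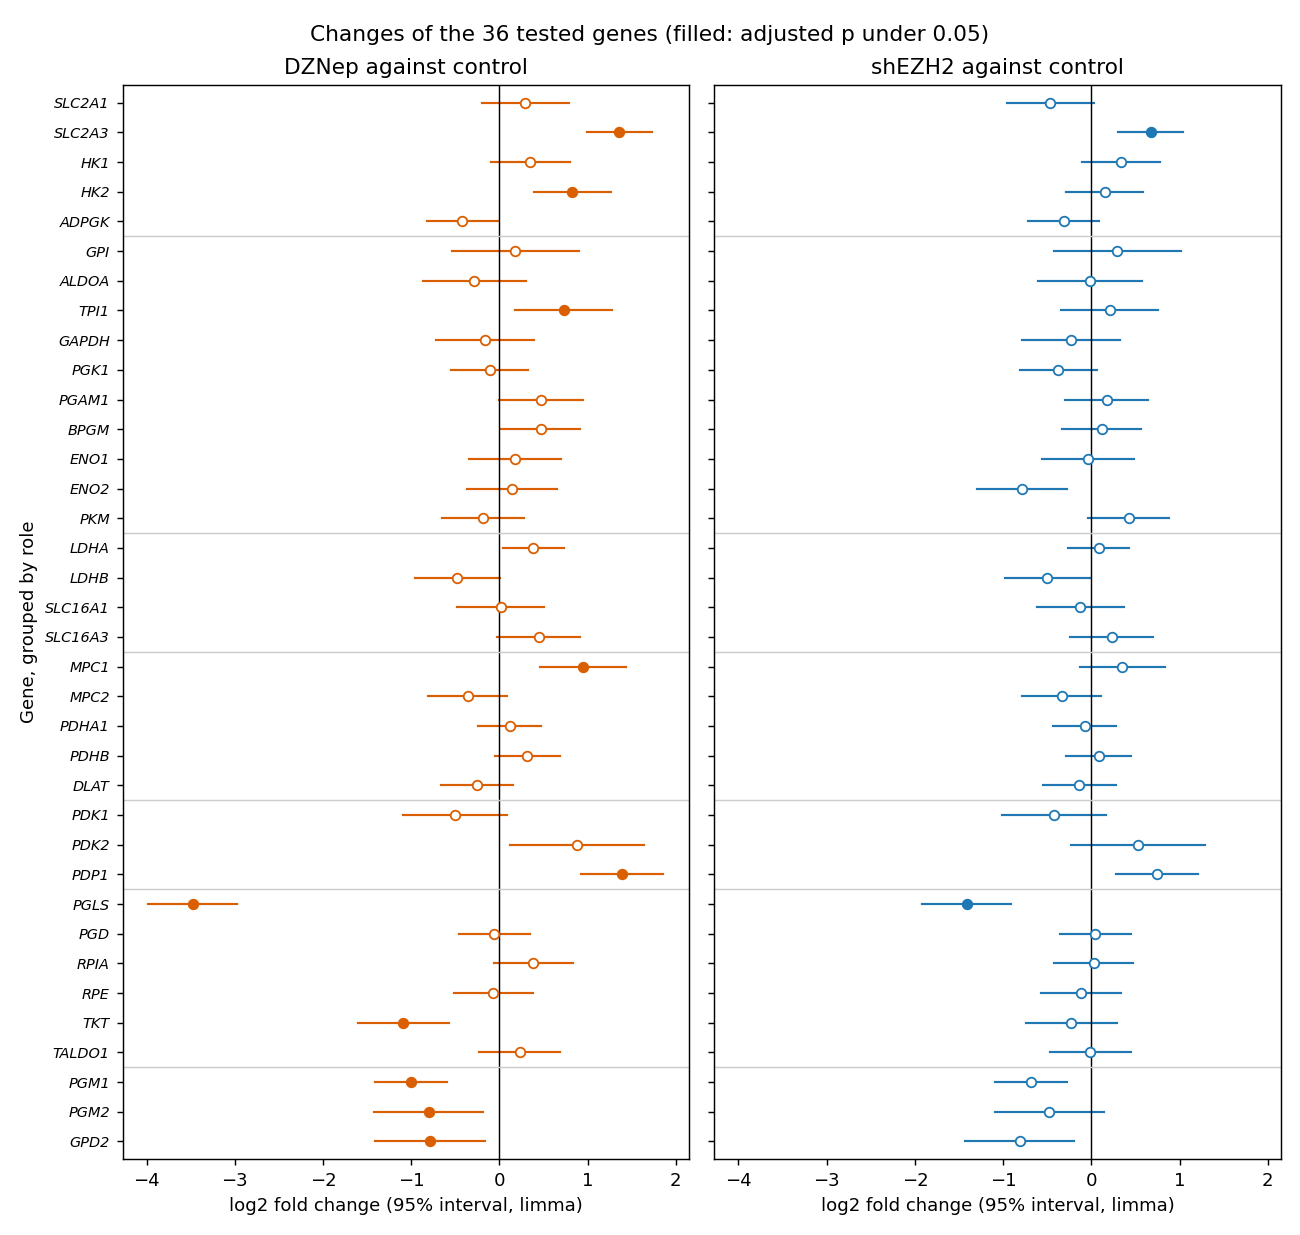
Log2 fold change of each of the 36 tested genes (rows, grouped by role from glucose entry at the top to the glycogen and glycerol phosphate branches at the bottom) for DZNep (left) and shEZH2 (right) against control, with the 95% interval from limma over 2 samples a group. Filled points had an adjusted p under 0.05: 10 genes with DZNep and 2 with shEZH2, and PGLS lies farthest from 0 in both panels.

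PGLS, the 6-phosphogluconolactonase that carries out the second step of the oxidative pentose phosphate arm (gene at chr19:17511636-17521288, plus strand, GRCh38, GENCODE release 44), had by far the largest change of the members. Its values were 102 and 78 in Ctrl, 7 and 8 in DZNep and 34 and 34 in shEZH2. The 3 groups did not overlap, with shEZH2 lying between DZNep and Ctrl. With DZNep it fell by 3.48 on the log2 scale (SE 0.22, 95% interval -3.98 to -2.98, adjusted p = 5.88e-05), the DZNep mean being 0.0833 of the Ctrl mean. Because the deposited values are rounded to whole numbers, the log2 ratio of the group means could lie anywhere from -3.69 to -3.48 on that account. By this contrast PGLS ranked 26 from the lowest of 9671 genes. With shEZH2 it fell by 1.41 (SE 0.22, 95% interval -1.92 to -0.91, adjusted p = 0.0143) and ranked 97. It was higher in shEZH2 than in DZNep by 2.06 (SE 0.22, adjusted p = 0.00346). The shEZH2 call was lost when either shEZH2 sample was left out (log2 fold change -1.36, adjusted p = 0.14, without replicate 1 and -1.44, adjusted p = 0.125, without replicate 2).

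TKT, the transketolase that exchanges carbon between pentose and triose phosphates (chr3:53224712-53256052, minus strand), was at 709 and 553 in Ctrl, 329 and 289 in DZNep and 559 and 549 in shEZH2. Both DZNep samples lay below all others, and shEZH2 overlapped Ctrl. TKT fell by 1.09 with DZNep (SE 0.22, adjusted p = 0.00636), while with shEZH2 its log2 fold change was -0.23 (adjusted p = 0.543, 95% interval -0.74 to 0.29). The difference between shEZH2 and DZNep was 0.87 (adjusted p = 0.0509).

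The other enzymes of the pathway did not pass in either comparison. These were PGD (6-phosphogluconate dehydrogenase, values 223 to 245), RPIA and RPE (the ribose 5-phosphate isomerase and ribulose 5-phosphate epimerase, 8 to 13 and 14 to 19) and TALDO1 (transaldolase, 141 to 195). Their log2 fold changes ran from -0.07 to 0.38 with DZNep, the intervals together spanning -0.52 to 0.83, so that changes up to these sizes remain possible. PGD overlapped between Ctrl and DZNep in its deposited values, at 233 and 223 against 236 and 225. The summed value of the 6 pathway genes was 1239 and 1023 in Ctrl, 792 and 744 in DZNep and 1023 and 1010 in shEZH2. Both DZNep sums were below the other 4.

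PGM1, the main phosphoglucomutase (chr1:63593411-63660245, plus strand), was at 94 and 93 in Ctrl, 49 and 48 in DZNep and 60 and 60 in shEZH2. All 4 samples of the treated groups lay below Ctrl. PGM1, which overlaps ITGB3BP on the opposite strand, fell by 1.00 with DZNep (SE 0.18, adjusted p = 0.00325), and its log2 fold change with shEZH2 was -0.68 (SE 0.18), which narrowly missed the threshold (adjusted p = 0.0528). PGM2, a phosphopentomutase with some glucomutase activity, had values of 32 and 50 in Ctrl, 17 and 33 in DZNep and 29 and 30 in shEZH2. Its deposited values overlapped between Ctrl and DZNep, and the scaled values did not. It fell by 0.80 with DZNep (SE 0.27, adjusted p = 0.0429).

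GPD2 passes electrons from cytosolic NADH to the respiratory chain by way of glycerol 3-phosphate. Its values were 10 and 18 in Ctrl, 6 and 10 in DZNep and 8 and 7 in shEZH2, so that the lower Ctrl sample and the higher DZNep sample had the same deposited value. It fell by 0.79 with DZNep (SE 0.27, adjusted p = 0.046), and its log2 fold change with shEZH2 was -0.81 (adjusted p = 0.097). All 3 of these branch genes were called lower with DZNep, beside 20.4% of all tested genes. GPD2 reached 10 in both Ctrl samples and otherwise only in DZNep replicate 2. The filter thus favoured a fall for GPD2, and its call is no independent support for one. The calls for PGM2 and GPD2 were lost when Ctrl replicate 2 (log2 fold changes -0.56 and -0.47), DZNep replicate 1 (-0.46 and -0.57) or either shEZH2 sample was left out. The last was because all groups share an estimate of spread (-0.81 and -0.79 without shEZH2 replicate 1, -0.80 and -0.79 without replicate 2). On the values as deposited, without further scaling, the log2 fold changes were -0.73 and -0.72 (adjusted p = 0.152 and 0.14), and a fit corrected for transcript length and GC gave -0.44 for GPD2.

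**Figure D2:**
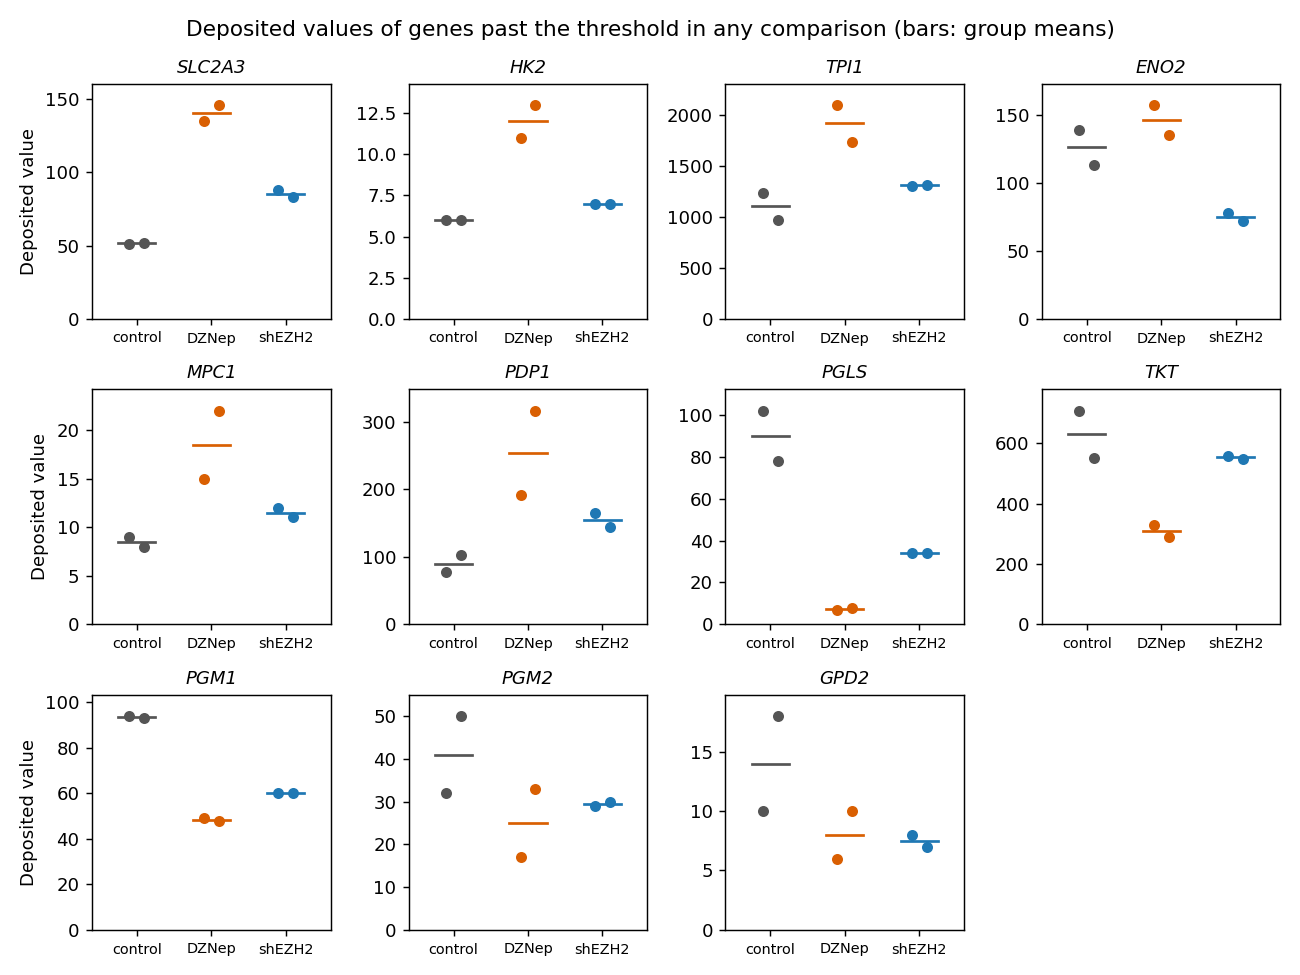
Deposited values (vertical axes, each from 0, in the authors' scaled units) of the 11 genes with an adjusted p under 0.05 in any of the 3 comparisons, with each point a sample and each bar the mean of 2 samples. PGLS drops from 102 and 78 in control to 7 and 8 with DZNep and sits at 34 with shEZH2, while the replicates of PGM2 and GPD2 spread widely in control and DZNep.

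At glucose entry, SLC2A3, the high-affinity glucose carrier GLUT3 (chr12:7919230-8019007, minus strand), had values of 51 and 52 in Ctrl, 135 and 146 in DZNep and 88 and 83 in shEZH2. The groups did not overlap. SLC2A3 rose by 1.36 on the log2 scale with DZNep (SE 0.16, adjusted p = 0.000593) and by 0.67 with shEZH2 (SE 0.16, adjusted p = 0.0429), and was lower in shEZH2 than in DZNep by 0.69 (log2 difference -0.69, adjusted p = 0.0375). The shEZH2 call did not hold without Ctrl replicate 2 (0.61, adjusted p = 0.152) nor without shEZH2 replicate 1 (0.68, adjusted p = 0.376) or replicate 2 (0.69, adjusted p = 0.361), and the difference between shEZH2 and DZNep missed the threshold without DZNep replicate 1 (-0.62, adjusted p = 0.0939) or replicate 2 (-0.72, adjusted p = 0.0602), or without shEZH2 replicate 1 (-0.67, adjusted p = 0.391) or replicate 2 (-0.67, adjusted p = 0.369). SLC2A3 also has a close paralog, SLC2A14, which is not analysed here, so reads shared between them make its value uncertain.

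SLC2A1, the widespread carrier GLUT1, was at 57 and 48 in Ctrl, 70 and 65 in DZNep and 37 and 41 in shEZH2. Its log2 fold changes of 0.29 (adjusted p = 0.304) and -0.46 (adjusted p = 0.199) did not pass, and that between shEZH2 and DZNep was -0.75 (adjusted p = 0.064). The ratio of SLC2A1 to SLC2A3 was 1.12 and 0.923 in Ctrl, 0.519 and 0.445 in DZNep and 0.421 and 0.494 in shEZH2, lower in all 4 treated samples. Such a ratio does not depend on how a sample was scaled.

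HK2, the inducible hexokinase bound to mitochondria in many tumours, was low in all samples, at 6 and 6 in Ctrl, 11 and 13 in DZNep and 7 and 7 in shEZH2. HK2 rose by 0.82 with DZNep (SE 0.19, adjusted p = 0.01), although rounding alone allows a log2 ratio of the group means from 0.82 to 1.18, whereas its shEZH2 log2 fold change was 0.15 (adjusted p = 0.636). HK2 was tested only because of the DZNep samples, the group where it is high, so its call is no independent support for a rise. HK1, the housekeeping hexokinase, was at 144 and 120 in Ctrl, 177 and 176 in DZNep and 177 and 167 in shEZH2, with log2 fold changes of 0.35 (adjusted p = 0.175) and 0.34 (adjusted p = 0.291). The ratio of HK2 to HK1 was above Ctrl in both DZNep samples and overlapped Ctrl in shEZH2. ADPGK, an ADP-dependent glucokinase (values 39 to 53), had log2 fold changes of -0.42 (adjusted p = 0.0847) and -0.31 (adjusted p = 0.275). The summed value of the 5 entry genes was 278 to 311 in Ctrl, 432 to 443 in DZNep and 343 to 351 in shEZH2, without overlap.

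Of the 10 tested genes for the hexose and triose steps, TPI1 alone passed with DZNep. TPI1, triosephosphate isomerase, was at 1232 and 973 in Ctrl, 2096 and 1734 in DZNep and 1306 and 1310 in shEZH2. Both DZNep samples lay above the other 4, and its log2 fold change was 0.73 (SE 0.24, adjusted p = 0.0396) with DZNep and 0.21 (adjusted p = 0.603) with shEZH2. The DZNep call was lost without Ctrl replicate 2 (0.48), DZNep replicate 1 (0.46), shEZH2 replicate 1 (0.72) or shEZH2 replicate 2 (0.73), with adjusted p from 0.0694 to 0.184, and a fit corrected for transcript length and GC gave 0.35. TPI1 overlaps SPSB2 on the opposite strand, whose values were 21 and 19 in Ctrl, 6 and 5 in DZNep and 10 and 10 in shEZH2. The methods name a stranded library kit, but whether the counting used strand is not given in the sources used here.

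ENO2, the neuronal enolase, which overlaps LRRC23 on the same strand, was at 139 and 113 in Ctrl, 157 and 135 in DZNep and 78 and 72 in shEZH2. Both shEZH2 samples lay below all others, yet the difference from Ctrl did not pass (log2 fold change -0.78, SE 0.22, adjusted p = 0.0644), whereas that from DZNep did (-0.93, SE 0.22, adjusted p = 0.0423). The second call was lost without DZNep replicate 1 (-0.69), shEZH2 replicate 1 (-0.92) or shEZH2 replicate 2 (-0.90), with adjusted p from 0.117 to 0.279. ENO1, the main enolase, was at 3831 and 3087 in Ctrl, 4292 and 3880 in DZNep and 3437 and 3505 in shEZH2. The ratio of ENO2 to ENO1 was 0.0363 and 0.0366 in Ctrl, 0.0366 and 0.0348 in DZNep and 0.0227 and 0.0205 in shEZH2, lower only in shEZH2 of the 2 treated groups.

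The remaining genes of these steps were GPI, the phosphoglucose isomerase (42 to 74), ALDOA, the main aldolase (565 to 848), GAPDH, glyceraldehyde 3-phosphate dehydrogenase (6056 to 7782), PGK1, phosphoglycerate kinase (429 to 592), PGAM1, phosphoglycerate mutase (393 to 642), BPGM, bisphosphoglycerate mutase (11 to 21), and PKM, pyruvate kinase (273 to 422). None passed in either comparison with Ctrl by limma. With those already named, the genes not called ran from -0.28 to 0.47 with DZNep and from -0.78 to 0.42 with shEZH2 on the log2 scale. At an unadjusted p under 0.05, 3 of the 10 were higher with DZNep, beside 26.5% of all genes, and 1 was lower with shEZH2, beside 13.4%. The 11 genes, ALDOC included, made up 1.21% to 1.56% of each sample's total, with Ctrl at 1.52% and 1.21%, DZNep at 1.56% and 1.38%, and shEZH2 at 1.3% and 1.31%. The range within Ctrl thus covered both shEZH2 samples. Across all members, the annotation (GENCODE release 44) holds 119 pseudogenes named after 17 of the 38 genes, 65 of them after GAPDH, and only 2 of these had a row, so reads of near-identical copies make the values of these genes uncertain.

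**Figure D3:**
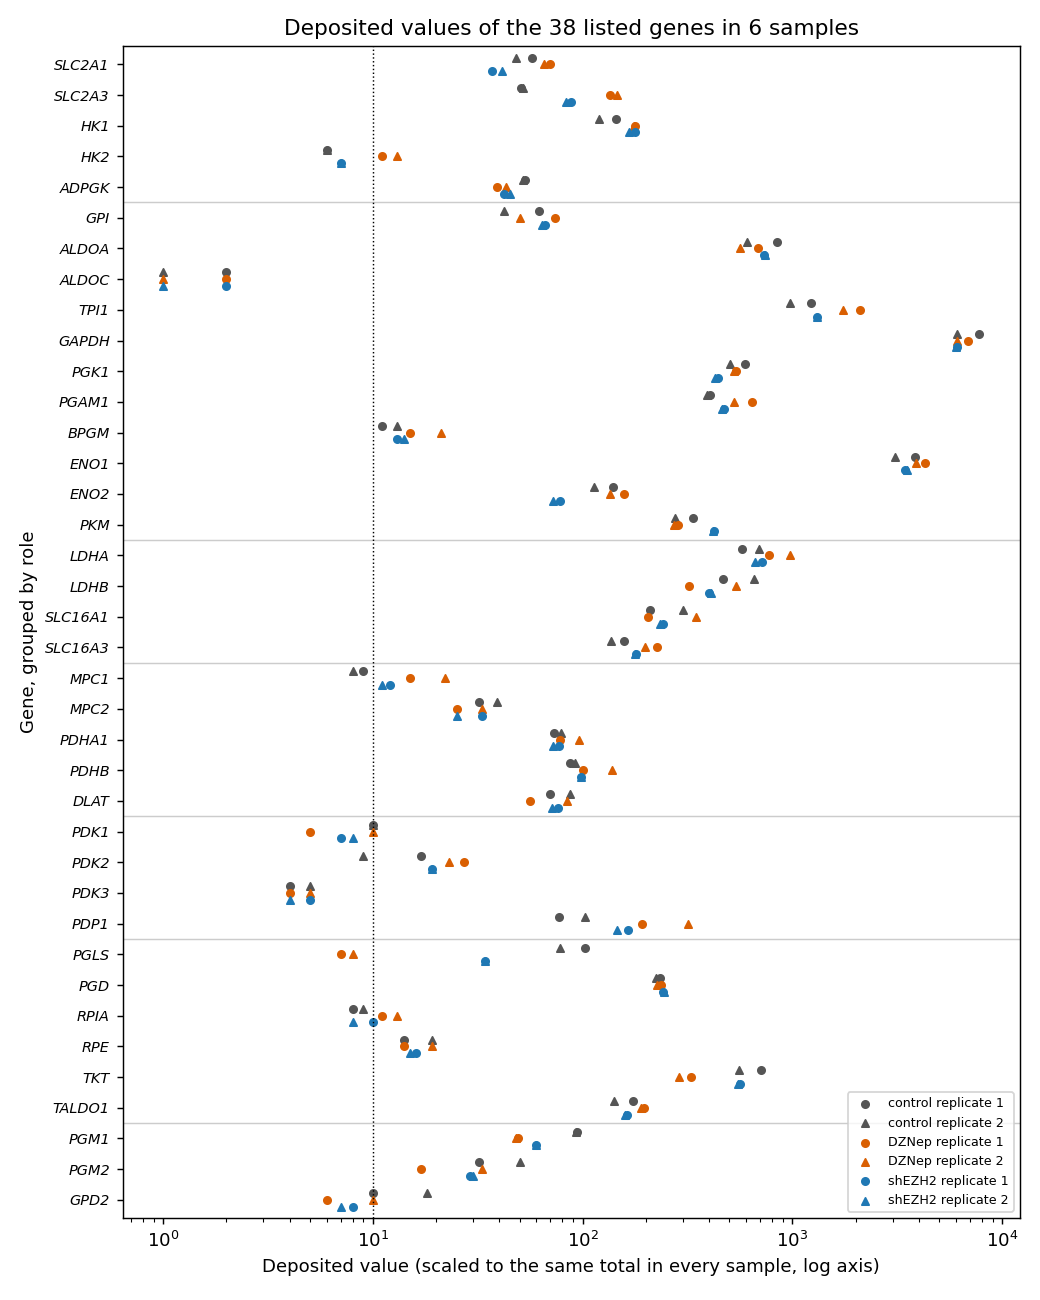
Deposited value (horizontal log axis, scaled by the authors to the same total in every sample) of all 38 genes in each of the 6 samples, with circles for replicate 1 and triangles for replicate 2. The dotted line marks 10, the level a gene had to reach in 2 samples to be tested, and most glycolytic genes, GAPDH at 6056 to 7782 among them, show the 3 groups close together.

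Among the 4 genes of lactate formation and export, none passed by limma. Of all genes, 22.4% rose and 20.4% fell with DZNep, and 3.9% and 4.53% with shEZH2. At an unadjusted p under 0.05, 1 was higher with DZNep (LDHA), beside 26.5% of all genes, and 1 was lower with shEZH2 (LDHB), beside 13.4%. LDHA, the lactate dehydrogenase subunit that favours lactate formation (576 to 970), had log2 fold changes of 0.38 (adjusted p = 0.0738) and 0.08 (adjusted p = 0.75). LDHB, the subunit that favours pyruvate (321 to 654), had -0.48 (adjusted p = 0.0996) and -0.50 (adjusted p = 0.165). The ratio of LDHB to LDHA was 0.811 and 0.948 in Ctrl, 0.417 and 0.557 in DZNep and 0.554 and 0.617 in shEZH2, the treated groups overlapping each other. It was lower in all 4 treated samples than in either Ctrl sample, by 0.86 and 0.58 on the log2 scale (log2 changes -0.86 and -0.58), a description over 2 samples a group with no test. The carriers SLC16A1 (MCT1, 204 to 347) and SLC16A3 (MCT4, the exporter of glycolytic cells, 137 to 225) had log2 fold changes of 0.02 and 0.45 with DZNep and -0.13 and 0.23 with shEZH2, and their ratio overlapped between groups.

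For mitochondrial pyruvate entry, MPC1, a subunit of the inner membrane pyruvate carrier, was at 9 and 8 in Ctrl, 15 and 22 in DZNep and 12 and 11 in shEZH2. Both DZNep samples were the highest, and neither Ctrl sample reached 10. MPC1 rose by 0.95 with DZNep (SE 0.21, adjusted p = 0.00864), whereas its shEZH2 log2 fold change was 0.35 (adjusted p = 0.309). Its partner subunit MPC2 was at 32 and 39 in Ctrl, 25 and 33 in DZNep and 33 and 25 in shEZH2, and did not pass (log2 fold changes -0.36 and -0.34, adjusted p = 0.169 and 0.293). The ratio of MPC1 to MPC2 was 0.281 and 0.205 in Ctrl, 0.6 and 0.667 in DZNep and 0.364 and 0.44 in shEZH2, above Ctrl in all 4 treated samples.

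The pyruvate dehydrogenase complex is built from PDHA1 and PDHB, which form its decarboxylase (72 to 96 and 87 to 138), and DLAT, the acetyltransferase core (56 to 87). Their log2 fold changes with DZNep were 0.12, 0.32 and -0.25, and with shEZH2 -0.08, 0.08 and -0.13, and none passed by limma, also at an unadjusted p under 0.05. PDP1, the calcium-sensitive phosphatase that switches the complex on, was at 77 and 103 in Ctrl, 192 and 317 in DZNep and 165 and 145 in shEZH2. The groups did not overlap. PDP1 rose by 1.39 with DZNep (SE 0.20, adjusted p = 0.0014), and its log2 fold change with shEZH2 was 0.74 (SE 0.20, adjusted p = 0.0593).

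Of the kinases that switch the complex off, PDK1 (5 to 10) had log2 fold changes of -0.51 (adjusted p = 0.146) and -0.42 (adjusted p = 0.321). PDK2 (9 to 27) had 0.88 (adjusted p = 0.0618) and 0.53 (adjusted p = 0.329). Neither passed. The ratio of PDK2 to PDK1 was 1.7 and 0.9 in Ctrl, 5.4 and 2.3 in DZNep and 2.71 and 2.38 in shEZH2. It lay above Ctrl in all 4 treated samples, but rests on values of 5 to 27. Of the 11 pairs of isozymes or subunits followed in this way, SLC2A1 to SLC2A3, LDHB to LDHA and PDHA1 to PDHB were below Ctrl and PDK2 to PDK1 and MPC1 to MPC2 above it in both treated groups. The ratios of ALDOC to ALDOA, SLC16A3 to SLC16A1, PDK3 to PDK1 and PGM2 to PGM1 overlapped Ctrl in both. Thus 6 of 11 pairs did not overlap Ctrl in DZNep, 6 in shEZH2 and 5 in both on the same side, whereas over all pairs of tested genes 69%, 66.6% and 52.9% did not, so that separation of a ratio is no result about these pairs.

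**Figure D4:**
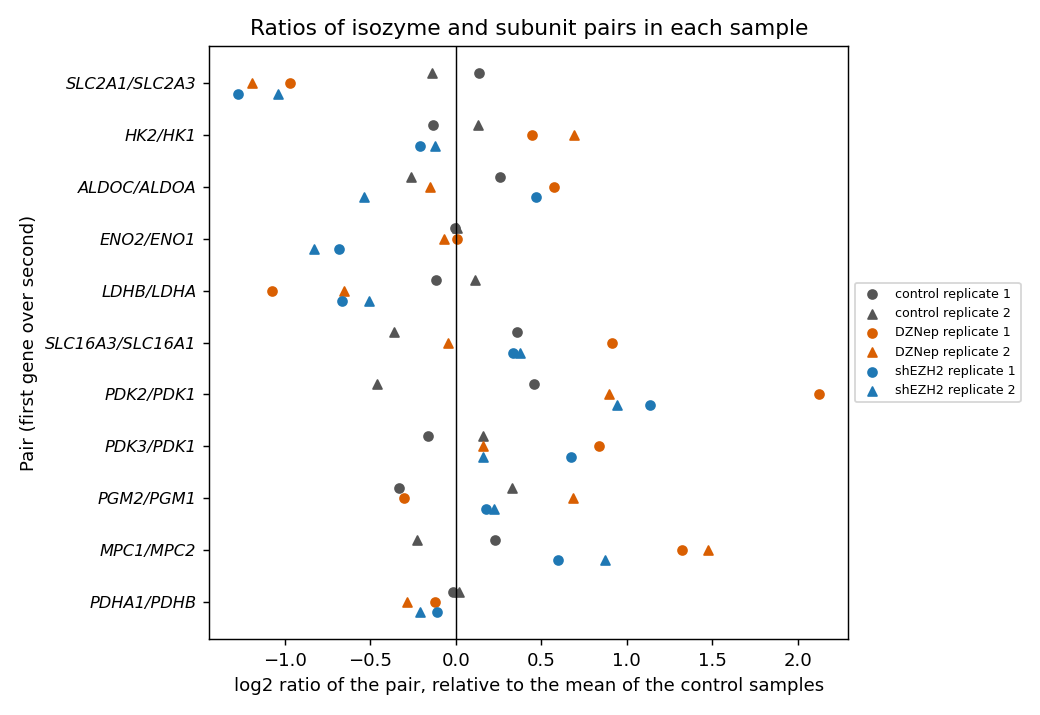
Log2 ratio of the values of 2 genes of a pair in each of the 6 samples (horizontal axis), set to 0 at the mean of the 2 control samples, with circles for replicate 1 and triangles for replicate 2. The ratio of SLC2A1 to SLC2A3 and that of LDHB to LDHA lie left of control in all 4 treated samples, that of MPC1 to MPC2 lies right of it, and that of ENO2 to ENO1 is shifted in the shEZH2 samples and not in the DZNep samples.

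The DNA just upstream of the members that moved with DZNep was read from RefSeq (build GRCh38.p14), in which 35 of the 38 members and 8 of the 10 called with DZNep had a start site. The 250 bases before the start are shown for the 4 called members with a single listed start, 3 that fell and 1 that rose, so that their letters can be compared. Capitals mark the letters GGGCGG, known as the GC box. They also mark CCAAT, the core of the box of that name. The remaining motif marked was the E-box, spelled CACGTG. All were searched on both strands, and neighbouring GC boxes of TKT share a base. The windows are chr19:17511399-17511648 on the plus strand for PGLS, chr3:53256023-53256272 on the minus strand for TKT, chr4:37826436-37826685 on the plus strand for PGM2 and chr6:166382941-166383190 on the minus strand for MPC1.
PGLS: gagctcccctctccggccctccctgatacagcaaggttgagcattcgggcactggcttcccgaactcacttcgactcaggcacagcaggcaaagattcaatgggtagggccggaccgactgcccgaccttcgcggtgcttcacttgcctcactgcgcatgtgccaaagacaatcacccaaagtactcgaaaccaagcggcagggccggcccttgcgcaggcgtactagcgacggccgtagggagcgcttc
TKT: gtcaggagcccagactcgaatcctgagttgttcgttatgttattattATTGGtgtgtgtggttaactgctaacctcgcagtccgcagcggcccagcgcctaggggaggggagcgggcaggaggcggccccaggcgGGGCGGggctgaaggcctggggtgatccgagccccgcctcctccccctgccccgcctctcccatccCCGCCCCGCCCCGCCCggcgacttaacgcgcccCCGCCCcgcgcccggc
PGM2: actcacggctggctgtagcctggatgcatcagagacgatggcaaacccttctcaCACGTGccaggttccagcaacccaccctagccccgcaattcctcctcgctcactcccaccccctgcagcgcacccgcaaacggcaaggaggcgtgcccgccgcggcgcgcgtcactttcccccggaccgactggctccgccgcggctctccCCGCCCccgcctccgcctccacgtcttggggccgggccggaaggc
MPC1: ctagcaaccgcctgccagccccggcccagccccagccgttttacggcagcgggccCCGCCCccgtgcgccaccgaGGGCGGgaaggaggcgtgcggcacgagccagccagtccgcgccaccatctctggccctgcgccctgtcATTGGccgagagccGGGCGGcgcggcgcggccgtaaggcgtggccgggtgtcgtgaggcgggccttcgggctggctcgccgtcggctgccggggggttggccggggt
The PGLS window held none of the 3 motifs and had the lowest GC content of the 4, at 61.6%. The TKT window held 5 GC boxes and 1 CCAAT box, that of PGM2 1 GC box and 1 E-box, and that of MPC1 3 GC boxes and 1 CCAAT box. Over all 35116 windows of this length in the table, 42.6% held a GC box, 32% a CCAAT box and 6.3% an E-box, beside 67.2%, 36.2% and 13.8% of the 58 windows of members. The median GC content was 58.0% over all windows and 68.0% over those of members. The part of GC content in these shares was not tested. A match of letters is a description and not a binding site.

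The DZNep and shEZH2 comparisons share the 2 Ctrl samples, so a likeness between them is no independent evidence. Compared directly, shEZH2 differed from DZNep in 3 of the 36 tested members. PGLS was higher in shEZH2, beside 4.88% of all genes, and SLC2A3 and ENO2 were lower, beside 4.42%. The median log2 difference of the members was -0.17, against 0.0001 over all genes.

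Genes of the same pathways outside the member list were read for context. Of 75 listed, 59 had a row and 45 were tested, of which 11 rose and 14 fell with DZNep, beside 22.4% and 20.4% of all genes, and 1 rose and 6 fell with shEZH2, beside 3.9% and 4.53%. The same shares of all genes apply to each list below. Among other pentose phosphate and ribose genes, 8 were tested, 1 rose and 3 fell with DZNep, and 2 fell with shEZH2. H6PD, which makes 6-phosphogluconate in the endoplasmic reticulum, was at 22 and 24 in Ctrl, 5 and 3 in DZNep and 11 and 10 in shEZH2, and fell in both (log2 fold changes -2.35 and -1.11, adjusted p = 0.000541 and 0.046). DERA, the deoxyribose phosphate aldolase, fell likewise (-1.30 and -1.01, adjusted p = 0.00133 and 0.0214).

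Among other pyruvate and lactate genes, 11 were tested, and 1 rose and 4 fell with DZNep. PCK2, the mitochondrial phosphoenolpyruvate carboxykinase, fell by 2.60 with DZNep (adjusted p = 0.000183). The malic enzymes ME1 and ME2 fell with DZNep (log2 fold changes -1.28 and -1.68, adjusted p = 0.00429 and 0.00094), and ME2 also fell with shEZH2 (-1.12, adjusted p = 0.0255), as the only gene of this list to pass there. PC, the pyruvate carboxylase, and PDHX and DLD, further parts of the pyruvate dehydrogenase complex, had log2 fold changes with DZNep of 0.25, -0.27 and -0.63, and none passed (adjusted p = 0.493, 0.298 and 0.0909).

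Of 7 other glycolytic enzymes tested, 4 rose with DZNep and none fell by limma, also at an unadjusted p under 0.05, where 22.4% of all genes rose and 20.4% fell. PGP, a phosphatase of glycolytic side products, was at 65 and 63 in Ctrl, 164 and 155 in DZNep and 113 and 106 in shEZH2, and rose by 1.23 (adjusted p = 0.00141) and 0.72 (adjusted p = 0.049). Of 7 other sugar carriers and kinases, 3 rose and 3 fell with DZNep. HKDC1, a hexokinase relative, rose by 1.33 (adjusted p = 0.000723). GALK1, galactokinase, fell with DZNep (log2 fold change -2.36, adjusted p = 0.000205) and with shEZH2 (-0.95, adjusted p = 0.035), and SLC37A4, the glucose 6-phosphate carrier of the endoplasmic reticulum, fell by 1.07 (adjusted p = 0.0119) with DZNep.

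Of 12 tested genes of glycogen, nucleotide sugars and glycerol phosphate, 2 rose and 4 fell with DZNep, and 2 fell with shEZH2. GBE1, the glycogen branching enzyme, fell in both (log2 fold changes -1.48 and -1.02, adjusted p = 0.00177 and 0.0355). GFPT1 and GFPT2, which open the hexosamine pathway, fell with DZNep (log2 fold changes -1.24 and -1.07, adjusted p = 0.00316 and 0.00589), and GFPT2 fell by 1.36 with shEZH2 (adjusted p = 0.0151).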

How the data were processed

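Gene-level RNA-seq values of 6 OVCAR8 samples in 3 groups were used. Per the labels and the methods, the authors cleaned reads (fastp), mapped them (STAR, GRCh38) and estimated gene expression (RSEM). The deposited values are a score in the authors' scaling, whole numbers with the same sum, 999956 to 1000068, in every sample and so not read counts. Whether they are per length is not given in the sources used here, so levels of different genes within a sample cannot be compared. Sums, shares and ratios over several genes depend on that and were compared between samples only. Depth, counting intervals and edgeR, the planned test for read counts, were not available. Values were scaled by TMM factors (trims of 30% and 5%, factors 0.92 to 1.12), and log2(value + 1) was fitted with limma 3.58.1 in R 4.3.3 (group means, trended variance, all 6 samples, two-sided, Benjamini-Hochberg over 9671 genes reaching 10 in 2 or more samples). Log2 fold changes are on this scale and understate changes of low genes. The fit was run on simulated data with equal, independent noise in all 6 samples. These data differ in that, so the run does not show how the shared estimate of spread behaves here. Figures were drawn with matplotlib 3.10.9. Alternatives covered scaling, filters, pseudocount, trend, samples fitted, a replicate block, averaging the shEZH2 samples, transcript length and GC content, and leaving out each sample. Members, lists and the rule for named genes were chosen with earlier results of these data known. All members are named, with every sample's value for those at adjusted p under 0.05 in any comparison and their pair partners. Of related genes, those at adjusted p under 0.05 with a log2 fold change beyond 1 against control are named, with a few fixed by name, of which 1 is not reported here.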

Additional observations from a re-analysis of the deposited data

How the results depend on the processing

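No member called in any comparison changed direction under any alternative, and of 265 checks of 15 such calls 223 kept their side of the threshold. The counts of members did move, and so did the shares of all genes called. Deviations of samples with the same replicate number correlated at 0.786 between Ctrl and DZNep, at -0.024 between Ctrl and shEZH2 and at -0.038 between DZNep and shEZH2. Ctrl and DZNep thus shared a replicate difference that shEZH2 did not, and the main fit left it out. With the replicate number as a block, 8 members were higher and 6 lower with DZNep, beside 28.2% and 27.9% of all genes. With shEZH2, 2 were higher and 5 lower, beside 14.5% and 14.1%. In shEZH2 against DZNep, 3 were higher and 7 lower, beside 14% and 12.6%. With a transcript length and GC correction 10 were higher and 12 lower with DZNep, beside 29.3% and 29.4% of all genes. With shEZH2 these were 2 and 10, beside 13.9% and 16.7%. For shEZH2 against DZNep they were 6 and 8, beside 17.3% and 16.1%. With this correction and the block the counts were 11 and 13 with DZNep, beside 32.1% and 32.2% of all genes. They were 3 and 11 with shEZH2, beside 18.4% and 21.2%, and 6 and 9 between treated groups, beside 21.7% and 20.1%. Both corrected fits put 2 members past 2-fold with shEZH2 and the median between treated groups at -0.121. On values as deposited the counts were 9 and 3 with DZNep, beside 25.7% and 15.6% of all genes. There were 3 lower with shEZH2, beside 4.32%, and 3 and 4 between treated groups, beside 5.37% and 6.97%. The share of higher genes among all called went from 52.3% to 62.2% with DZNep and from 46.3% to 66% with shEZH2. Median-ratio scaling and a pseudocount of 5 each gave 2 lower with shEZH2, beside 5.08% and 5.24% of all genes. Each gave 2 higher between treated groups, beside 5.23% and 4.6%. With only the 2 groups compared, 3 were lower with DZNep, beside 15.6% of all genes. With shEZH2, 2 were higher and 3 lower, beside 8.01% and 7.87%, and 3 were higher between treated groups, beside 7.7%. Without a filter on low values 3 were lower with DZNep, beside 17.2% of all genes. Here 0 were higher with shEZH2 (2 at an unadjusted p under 0.05), beside 2.28%. Between treated groups 0 were lower (6 unadjusted), beside 2.7%, with a median of -0.104. A minimum of 20 left 3 higher with DZNep, beside 23.6% of all genes. Limma without trend left 0 higher with shEZH2 (2 unadjusted), beside 4.04%. With the shEZH2 samples averaged as 1, 3 were lower with DZNep, 0 higher and 0 lower with shEZH2 (2 and 2 unadjusted), and 0 lower between treated groups (3 unadjusted). EZH2 then missed the threshold with DZNep (-0.641) and shEZH2 (-1.109), and with only the 2 groups fitted with DZNep (-0.632). Leaving out each sample in turn gave 3 to 7 higher and 3 to 7 lower with DZNep, 0 to 2 and 0 to 3 with shEZH2, 1 to 3 and 0 to 4 between treated groups, 1 to 3 past 2-fold with shEZH2, medians of -0.029 to 0.235 with DZNep and -0.166 to -0.118 between treated groups, and EZH2 at -0.755 to -0.519 with DZNep and -1.148 to -1.065 with shEZH2. Where leaving out a shEZH2 sample left 0 in these counts, 2 to 3 members passed unadjusted in that direction, and 2 where leaving out Ctrl replicate 2 left 0 higher. Averaging or leaving out samples leaves fewer residual degrees of freedom, and a lone sample is assumed to vary like the other groups. For the other settings the cause was not tested.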

Other observations

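Among 12 tested regulators of glycolytic genes, 5 rose and 1 fell with DZNep, beside 22.4% and 20.4% of all genes, and 2 rose with shEZH2, beside 3.9%. MYC, which drives many glycolytic genes, was at 73 and 69 in Ctrl, 201 and 207 in DZNep and 136 and 139 in shEZH2. It rose by 1.44 on the log2 scale with DZNep (SE 0.17, limma adjusted p = 0.000605) and by 0.90 with shEZH2 (adjusted p = 0.0226). TXNIP, which restrains glucose uptake, was at 26 and 29 in Ctrl, 45 and 51 in DZNep and 60 and 48 in shEZH2, and rose by 0.71 (adjusted p = 0.0138) and 0.89 (adjusted p = 0.0251). HIF1A, the oxygen-regulated factor, had log2 fold changes of -0.35 (adjusted p = 0.331) and -0.35 (adjusted p = 0.433), and MLXIP, a glucose-sensing factor, -0.30 (adjusted p = 0.437) and 0.02 (adjusted p = 0.964).

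Of 12 tested HIF target genes outside glycolysis, 4 rose and 3 fell with DZNep, and 2 rose with shEZH2, beside the same shares of all genes. ADM, the peptide hormone adrenomedullin, was at 66 and 60 in Ctrl, 422 and 436 in DZNep and 111 and 110 in shEZH2, and rose by 2.68 (adjusted p = 6.11e-05) and 0.75 (adjusted p = 0.0384). ANKRD37 was at 1 and 2 in Ctrl, 28 and 33 in DZNep and 5 and 7 in shEZH2, and rose in both comparisons (adjusted p = 7.25e-05 and 0.0182). ANKRD37 reached the level for testing only in the DZNep samples, where it is high, so its DZNep call is no independent support for a rise. In contrast, BNIP3 and BNIP3L, genes of mitophagy, and P4HA1, a collagen prolyl hydroxylase, fell with DZNep. BNIP3 fell by 1.00 (adjusted p = 0.00442), BNIP3L fell by 1.43 (adjusted p = 0.00491) and P4HA1 fell by 1.58 (adjusted p = 0.00153).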
